A study of Drosophila melanogaster with 5 samples.

Results

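The NK homeobox cluster of Drosophila melanogaster was examined as an interval of open chromatin on chromosome arm 3R, at positions 17170000 to 17430000 of the dm3 build, a stretch of 260 kb. Its members were the FAIRE-seq peaks whose midpoint lay in that interval, a rule of position alone, although the interval was picked with earlier results of these data known. They numbered 99 of 20000 deposited peaks, 59 of 10000 in the list from sorted midline cells and 40 of 10000 in the list from whole embryos. In FAIRE-seq, crosslinked chromatin is sheared and extracted with phenol, and the DNA that stays free of protein is sequenced. The midline list came from 2 pooled libraries of GFP-positive cells, sorted from embryos aged 6 to 8 hours that carried sim3.7-Gal4 and UAS-mCD8::GFP, so the cells are those in which the sim driver was active. The embryo list came from 2 pooled libraries of OregonR embryos of the same age, which contain the midline cells too. The sorted cells were homogenized and sorted before a fixation of 5 minutes, whereas the embryos were fixed whole for 10 minutes, so strain, handling and cell type cannot be told apart. A genomic DNA input from adult virgin females of the strain y;cn,bw,sp was not analysed here.

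NK homeobox genes encode transcription factors of an ancient animal gene family, several of which lie side by side in flies, as Hox genes do. In the fly embryo the cluster is known mainly for genes that pattern the mesoderm. The 6 genes of the cluster are tin, which specifies the heart and dorsal mesoderm, and bap, which acts in the visceral mesoderm that forms gut muscle. The ladybird genes lbl and lbe act in subsets of heart cells and muscle precursors, and slou gives identity to a subset of body wall muscles. C15 is known from the tip of the developing leg. All 6 were found in the RefSeq gene table, which is on Release 6, and there they run in the order tin, bap, lbl, lbe, C15 and slou. In that table tin and bap are direct neighbours, 5 genes lie between bap and lbl, 1 non-coding gene between lbl and lbe, 3 genes between lbe and C15, and 3 between C15 and slou. No annotation of dm3 was used and no position was converted, so peaks are given by their dm3 positions and none is assigned to a gene. The peak lists hold no expression values, so the activity of these genes in either population was not measured.

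The cluster was dense in open regions in both populations, and more so in the midline list. The genome was divided into windows of the same 260 kb width, 461 of which held a peak. Only 6 of these windows held more midline peaks than the 59 of the NK cluster, and 25 held more embryo peaks than its 40. The median window held 21 peaks of each list. Midline peaks covered 19.9 kb of the interval (7.66%), against 6.19 kb in the median window. Embryo peaks covered 17.1 kb (6.56%), against 7.94 kb in the median window. These are ranks among windows, given as a description without a test.

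About as many midline peaks of the cluster were midline-only as were shared, whereas most of its embryo peaks had a counterpart in the midline list. Peaks of the 2 lists with at least 1 bp in common were classed as shared. Of the 59 midline peaks, 28 were shared (47.5%, exact Clopper-Pearson 95% interval 34.3 to 60.9%), against 60.9% over the whole midline list. The other 31 were midline-only (52.5%, 39.1 to 65.7%), against 39.1% over the whole list. Of the 40 embryo peaks, 27 were shared (67.5%, 50.9 to 81.4%), against 56.6% over the whole embryo list. The remaining 13 were embryo-only (32.5%, 18.6 to 49.1%), against 43.4% over the whole list. The midline intervals end almost exactly at the shares of the whole list, the embryo intervals include them, and both cover counting error only. Shared peaks were the majority of midline peaks among the 5000 highest of each list (54.5%) and with bounds 50 kb wider on each side (57.3%). The second share is still below the 60.9% of the whole list. For the first, the share over the genome at that setting was not computed. Against the full embryo list, 23 of the cluster's 34 midline peaks at ranks up to 5000 were shared, and 4140 of 5056 over the genome. On the rest of arm 3R, 60.6% of midline and 57.7% of embryo peaks were shared. The shared counts differ because a single embryo peak, at 17424200 to 17424616, spanned 2 midline peaks. With shared counts this close, the difference between the 2 shares in the cluster follows from its 59 midline and 40 embryo peaks.

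**Figure D1:**
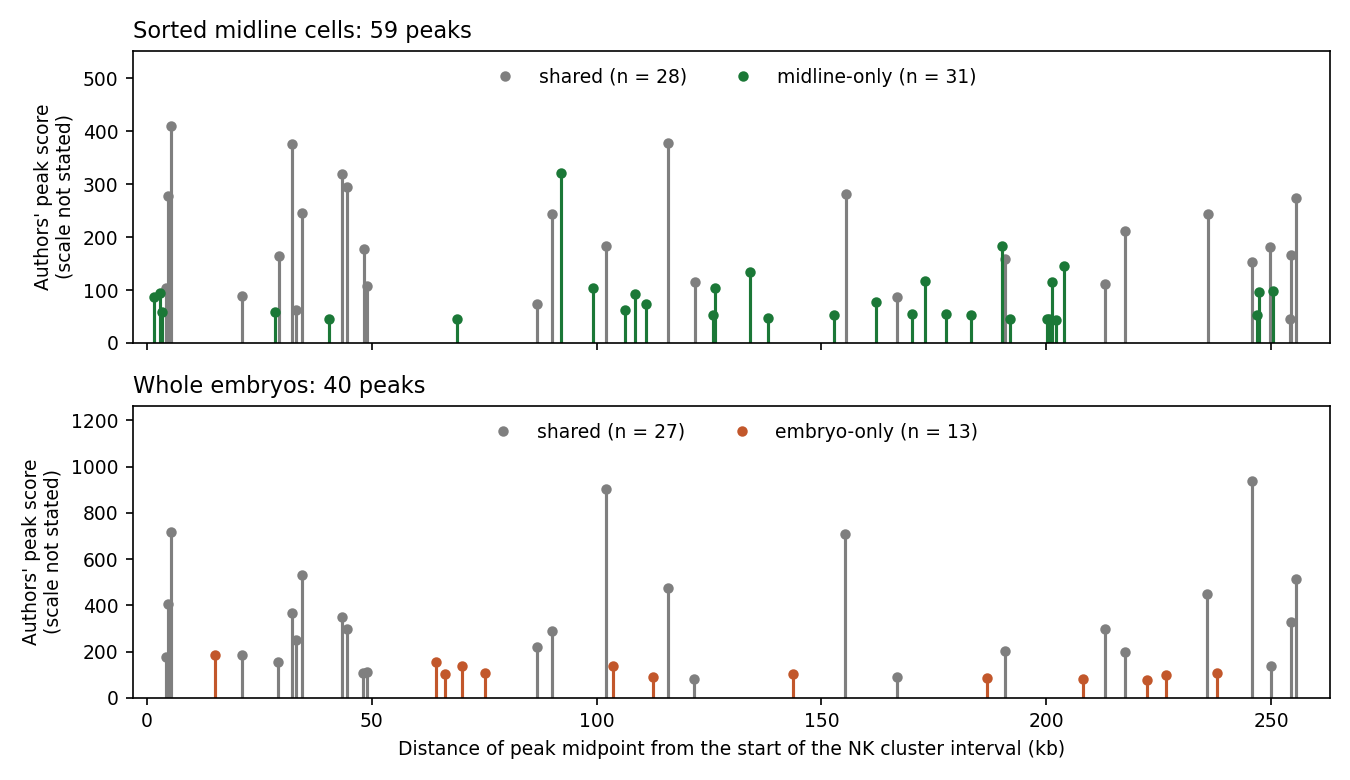
Each stem is a peak of the NK cluster, placed by the distance of its midpoint from the start of the interval in kb, with the authors' score as its height (scale not stated, not comparable between the panels). Upper panel, 59 midline peaks, 28 shared and 31 midline-only. Lower panel, 40 embryo peaks, 27 shared and 13 embryo-only, in which the embryo-only peaks all have scores of 184 or less.

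Of the cluster's peaks among the 1000 highest of their list, shared ones made up 5 of 6 in midline cells and 5 of 5 in embryos, against 96.6 and 97.1% of the whole lists at those ranks. The 5 shared sites with the highest midline scores are given next. The highest, at 17175160 to 17175544, had a score of 409 (rank 383 of the list) and overlapped an embryo peak with a score of 717 (rank 487). The second, at 17285727 to 17286097, had a score of 378 (rank 464) and an embryo partner with a score of 475 (rank 1239). The third, at 17201979 to 17202738, had a score of 375 (rank 479), and its partner had a score of 369 (rank 1864). These sites lie 5.4, 115.9 and 32.4 kb from the start of the interval, so strong shared sites stand in different parts of the cluster. The fourth and the fifth shared sites, at 17213152 to 17213631 and 17214320 to 17214623, are close neighbours with midline scores of 320 (rank 762) and 295 (rank 936). Their embryo partners had scores of 351 (rank 1994) and 296 (rank 2516). By score, though not by position, a midline-only peak with a score of 322, described below, falls between the third and the fourth. Scores are the authors' own and are not on a common scale between the lists, so ranks are the measure to compare.

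Of the 31 midline-only peaks, 1 (3.23%) was among the 1000 highest of its list, against 34 of 3911 (0.869%) over the genome. It lay at 17261737 to 17262363, 627 bp wide, with a score of 322 and rank 746, and its nearest embryo peak was 1391 bp away. On the reading of the peak numbers given below, 4 embryo calls were left out between the embryo peaks that flank it. The next, at 17359975 to 17360356, had a score of 183 (rank 2291) and ended 265 bp from an embryo peak. The third, at 17373745 to 17374277, had a score of 146 (rank 3116), and the nearest embryo peak was 3717 bp away. The fourth, at 17303776 to 17304464, had a score of 134 (rank 3479) and was the most isolated, at 9106 bp from any embryo peak. The fifth, at 17342855 to 17343389, had a score of 117 (rank 4021). Below these, the midline-only peaks went down to a score of 44, the lowest of the whole list. Their median score was 63, against 64 for all 3911 midline-only peaks of the genome, and their median width was 209 bp, against 221 bp. Of the 31, 11 (35.5%) stood among the 5000 highest midline peaks, against 23.4% of midline-only peaks over the genome. In distance, 23 of them (74.2%) lay at least 1 kb from any embryo peak, against 71.9% over the genome.

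Of the 13 embryo-only peaks of the cluster, 0 ranked among the 1000 highest embryo peaks. Over the genome only 29 of 4342 embryo-only peaks did (0.668%). The highest in the cluster, at 17185200 to 17185375, had a score of 184 and rank 4219. The second to the fifth had scores of 154, 137, 136 and 109, at 17234209 to 17234491, 17273368 to 17273808, 17239811 to 17240353 and 17407920 to 17408144. Ranks of these 4 ran from 4994 to 6858. The median score of the 13 was 102, against 108 for all embryo-only peaks of the genome, and 11 of them (84.6%) lay at least 1 kb from any midline peak, against 76.6%. Among the 5000 highest embryo peaks stood 2 of the 13 (15.4%), against 24.0% of embryo-only peaks over the genome. The median width of the 13 was 333 bp, against 228 bp.

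The counts of each class varied between stretches of the cluster. In the first 60 kb, shared peaks prevailed, with 12 of 17 midline peaks and 12 of 13 embryo peaks shared. The next 20 kb, from 17230001 to 17250000, held 4 embryo-only peaks, 1 midline-only peak and 0 shared peaks, and was the only block of the 13 without a shared peak. From 80 to 220 kb, at 17250001 to 17390000, midline-only peaks prevailed, with 22 of 32 midline peaks, and 10 were shared (31.2%). In the same 140 kb, 10 of 15 embryo peaks were shared (66.7%), near the 67.5% of the whole cluster. In the last 40 kb, 6 of 9 midline (66.7%) and 5 of 8 embryo peaks (62.5%) were shared, near the shares of the whole lists. The counts are small, and the limits of these stretches were drawn after the counts were seen, so they carry no test. Whether the classes vary more along this interval than along other windows was not tested.

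**Figure D2:**
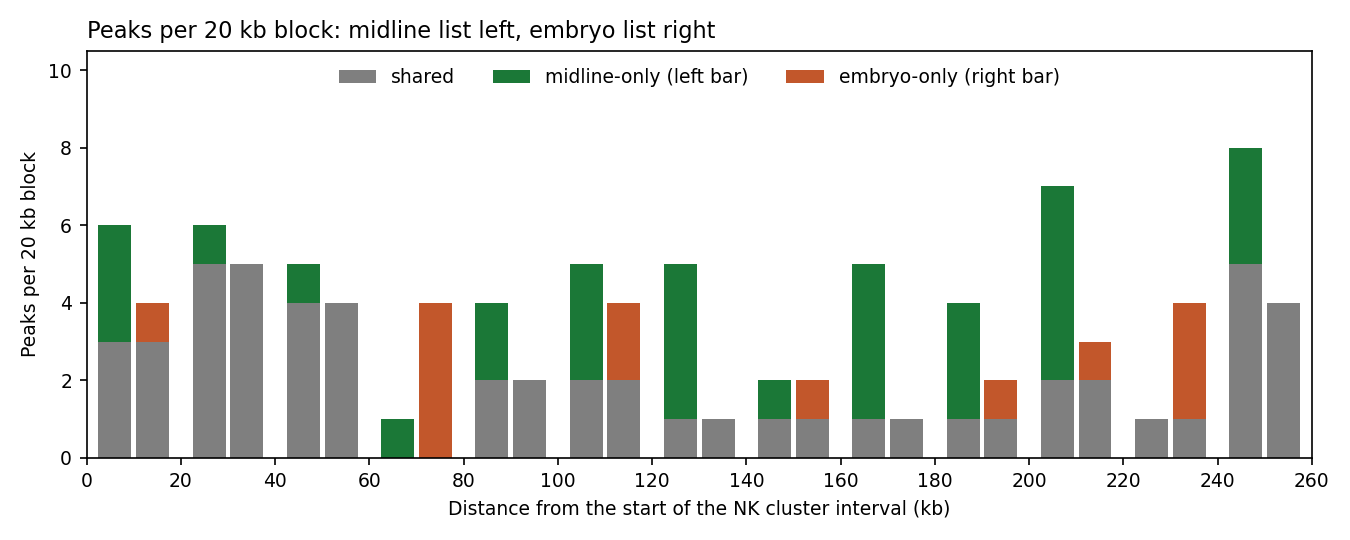
Number of peaks in each of the 13 blocks of 20 kb along the NK cluster, midline list on the left and embryo list on the right of each block, with shared peaks in grey. The block at 60 to 80 kb holds 4 embryo-only and 1 midline-only peak, and the 7 blocks from 80 to 220 kb hold 22 of the 31 midline-only peaks.

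Midline-only peaks also followed each other in runs. The longest run held 6 of them, from 17361849 to 17374277, with scores from 44 to 146. Runs of 4 spanned 17340117 to 17353338 and 17295843 to 17308333. These 3 runs lie in the widest stretches without an embryo peak, which measured 21.8 kb (4 midline peaks inside), 19.5 kb (4 inside) and 17.0 kb (6 inside). A run of midline-only peaks lies in such a stretch by construction, so the stretches are not a result separate from the runs. On the reading of the peak numbers given below, 2 embryo calls were left out around the run of 6. Around the runs of 4, in the order given, 2 and 1 were left out. The widest stretch without a midline peak was 19.9 kb, from 17219046 to 17238921, and held 2 embryo peaks. The widest stretch with no peak of either list was 15.2 kb, from 17219053 to 17234208. No run of embryo-only peaks exceeded 2. However, the runs from 17234209 to 17236391 and from 17239811 to 17245518 were parted only by a midline-only peak of 143 bp (rank 9271). With 31 midline-only and 13 embryo-only peaks, run lengths depend on these numbers, and no background of run lengths was computed.

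The balance of list-only peaks leaned to the midline. With nearly equal shared counts (28 and 27), this balance follows from the 59 midline and 40 embryo peaks of the interval. It is therefore not a result separate from those peak numbers. Of the 44 list-only peaks in the cluster, 31 were midline-only (70.5%, exact 95% interval 54.8 to 83.2%), against 47.4% over the genome. In an exact two-sided binomial test run on all 438 windows with at least 6 list-only peaks, the cluster had an adjusted p of 0.0364 (Benjamini-Hochberg, unadjusted p = 0.00233). In that test 6.85% of windows were called in either direction, 3.88% towards the midline and 2.97% towards the embryo, and 26 windows had a smaller p than the cluster. Only 2 windows held more midline-only peaks, while 91 held more embryo-only peaks. Of 10 alternatives, 2 kept the call and 7 lost it, with adjusted p from 0.0638 to 0.337, among them comparison with the proportion of arm 3R (adjusted p = 0.0937, exact binomial test) and bounds 20 kb narrower on each side (adjusted p = 0.19). The 2 that kept it left the cluster's counts of 31 and 13, its reference and its unadjusted p unchanged. They are therefore no separate support for the call. The remaining alternative kept only peaks flanked by consecutively numbered peaks in the opposite list and turned the direction, with 1 of 4 midline-only (25.0%, against 37.0% over the genome), too few for the test. The test treats neighbouring peaks as independent and describes the 2 pooled lists, with no estimate of the variation between embryo collections.

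**Figure D3:**
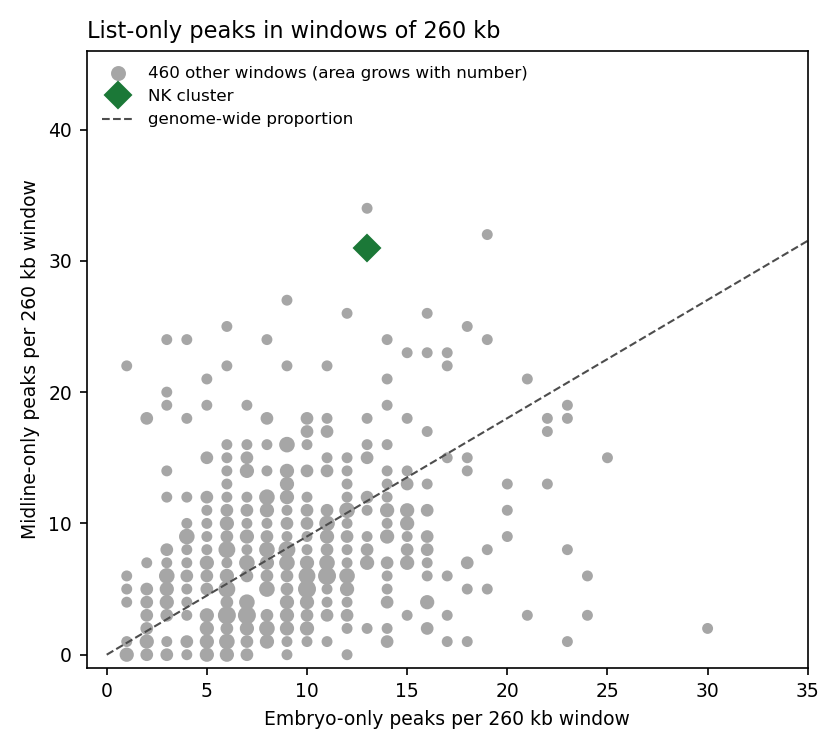
Embryo-only against midline-only peaks in each of the 461 windows of 260 kb that held a peak, with the genome-wide proportion as a dashed line. The NK cluster, with 31 midline-only and 13 embryo-only peaks, lies above the line near the upper edge of the windows.

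Midline peaks of the cluster were shared at lower rates than the whole list mainly at ranks 2501 to 5000 and 7501 to 10000. Among the 2500 highest midline peaks, the cluster had 17, of which 15 were shared (88.2%), against 92.6% of the whole list. In the first of these classes, 8 of 17 were shared (47.1%), against 71.4% of the whole list at those ranks. In the second, 1 of 16 was shared (6.25%), against 30.6%, while at ranks 5001 to 7500 the share was 4 of 9, against 48.4%. If each cluster peak had been shared at the rate of its rank class, 37.1 of the 59 midline peaks would have been shared, and 28 were. For the embryo list the corresponding number was 24.3 of 40, and 27 were shared. All 12 cluster peaks among the 2500 highest embryo peaks were shared, against 91.8% of the whole list. The rank classes were chosen after the shares were known, and no test was made.

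**Figure D4:**
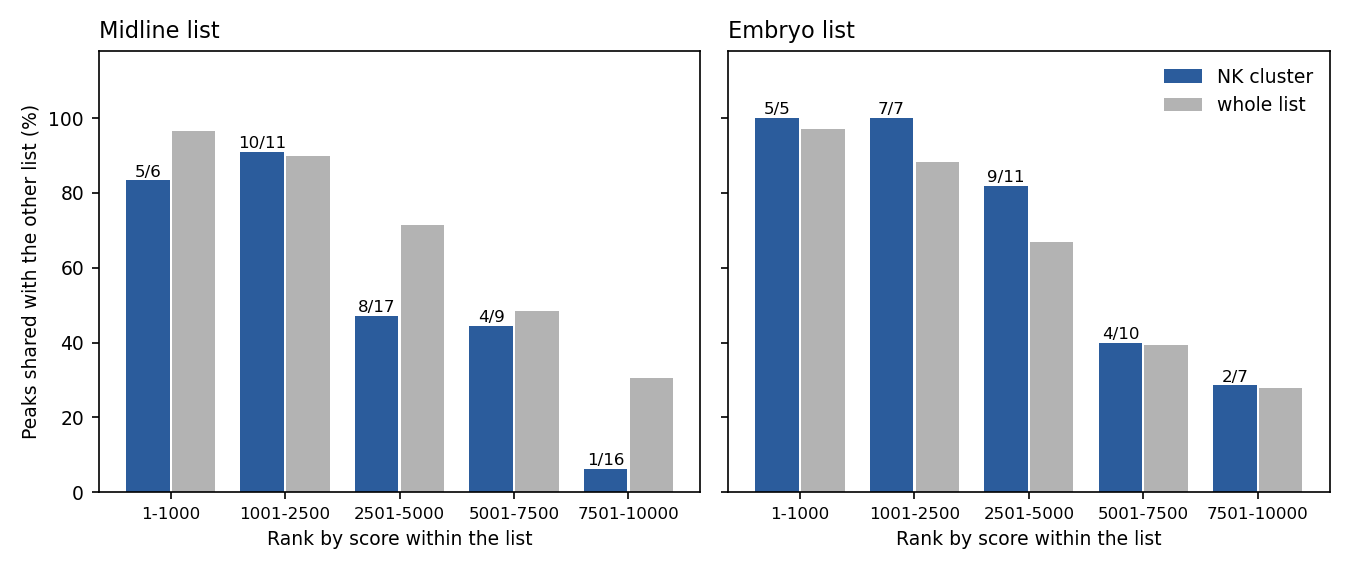
Share of peaks that overlap a peak of the other list, by rank class within each list, for the NK cluster (blue, with counts above the bars) and the whole list (grey). In the midline list the cluster lies below the whole list most clearly at ranks 2501 to 5000 (8 of 17 shared) and 7501 to 10000 (1 of 16).

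Each list stops at 10000 peaks. The numbers in the authors' peak names skip values, which were read as calls left out of the deposited lists. The reading assumes that numbering preceded the selection of 10000 peaks, a point on which the files are silent. Within the cluster the midline numbers span 82 calls, of which 23 (28.0%) were left out, against 34.2% over the genome. The embryo numbers span 75 calls, of which 35 (46.7%) were left out, against 43.0%. The cluster thus held 0.540% of the longer midline set of 15189 and 0.427% of the longer embryo set of 17552, against 0.59 and 0.40% of the deposited lists. Only 1 of the 31 midline-only peaks (3.23%) lay between consecutively numbered embryo peaks, against 19.8% of midline-only peaks over the genome. For the other 30, on that reading, at least 1 embryo call of unknown position was left out between the flanking embryo peaks. Among the 13 embryo-only peaks, 3 (23.1%) lay between consecutively numbered midline peaks, against 30.4% over the genome. Whether the omitted embryo calls lie at the midline-only peaks was not tested.

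Shared sites occupied nearly the same positions in both lists, but their ranks often differed. Matched by largest overlap, the cluster held 27 pairs, whose midpoints were a median of 30 bp apart, against 34.5 bp over all 5633 pairs of the genome. The embryo peak was the wider in 18 of the 27 (66.7%), against 78.5% over the genome. The rank was better in the midline list for 15 pairs (55.6%, against 49.3% over the genome) and better in the embryo list for 12. The median difference, midline minus embryo rank, was -542 places, against 22 over all pairs. Ranks differed by more than 2000 places in 11 pairs (40.7%), against 37.7% over the genome, so the size of the shifts was near that of all pairs.

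Of the 11 pairs that differed by more than 2000 places, 7 ranked better among midline peaks and 4 among embryo peaks. The largest difference was at 17291588 to 17292018 (midline positions), with midline rank 4086 and embryo rank 8797. The pair at 17218046 to 17218468 followed, with ranks 2390 and 6939 in the same order. The third, at 17203041 to 17203238, ran the other way, with midline rank 7216 and embryo rank 3071. The fourth, at 17419410 to 17419948, had ranks 2328 and 5484, and the fifth, at 17256706 to 17256961, ranks 6347 and 3540. The 2 highest embryo peaks of the cluster were also among the 11. The first, at 17415465 to 17416089, had a score of 936 and rank 169, while its midline partner had a score of 153 and rank 2933. The other, at 17271964 to 17272496, had a score of 904 and rank 195, against a midline score of 183 and rank 2291. These pairs were chosen for their values after those were seen. Across the 27 pairs ranks correlated with a Spearman rho of 0.60 and a Pearson r of 0.53, against 0.59 and 0.53 over all pairs. The correlations are across peaks of the same 2 lists and carry no test.

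**Figure D5:**
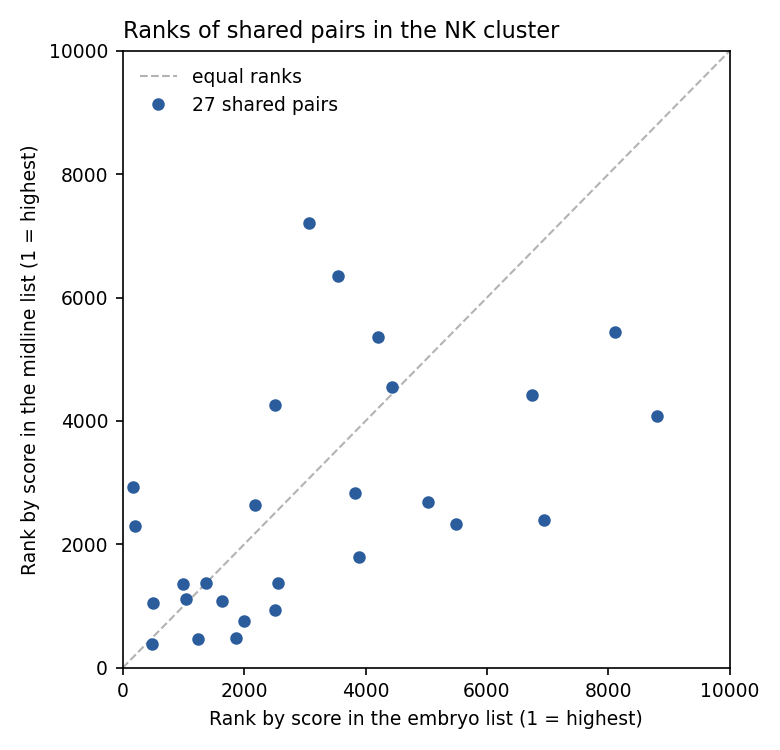
Rank by score of the 27 shared pairs of the NK cluster in the embryo list (horizontal) and the midline list (vertical), with 1 as the highest score and equal ranks on the dashed line. The pairs at the left edge, with embryo ranks of 169 and 195, have midline ranks of 2933 and 2291.

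The bounds of the interval cut through a region with further peaks. The last midline peak before the start lay 3.09 kb outside (score 102, midline-only), and the first inside lay 1.60 kb from the bound (score 87, midline-only). At the far end, the last midline peak inside had a score of 273. The first beyond it, 1.32 kb outside at 17430947 to 17431699, had a score of 536 (rank 138) and was shared with an embryo peak of rank 62, and no peak inside the cluster ranked as high in its list.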

How the data were processed

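Per the submitters' processing notes, CASAVA 1.8.2, Bowtie2, SAMtools, bedtools and MACS2 were used on dm3. What each tool did, and its settings, was not given in the sources used here. Peak calling by the authors used replicates pooled within each group, per the peak names in the files, and the deposited score is a whole number without a stated scale, used here only to rank peaks within a list. Read depth is unknown, the deposited lists hold no values per replicate, and the number of unused per-sample columns was 0.

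Peaks were classed as shared at a minimum overlap of 1 bp. Positions are 1-based. Windows of 260 kb were tiled over each arm, on 3R from the cluster start, and tested by an exact binomial test with Benjamini-Hochberg adjustment at a threshold of 0.05. The procedure was tested on simulated data in which each peak drew its class independently, apart from windows altered on purpose. Dependence between neighbouring peaks or between the lists was not part of that test. Named peaks are the 5 highest-scoring of each list-only class and the 5 shared peaks with the highest midline score. The members, windows and lists were chosen with earlier results of these data known. The planned comparison of the 6 homeodomains was not run, since no protein sequences were used. Calculations ran in Python 3.11.15 with pandas 2.3.3, scipy 1.17.1, numpy 2.4.6 and matplotlib 3.10.9.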

Additional observations from a re-analysis of the deposited data

How the results depend on the processing

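The share of shared midline peaks in the cluster stayed within its 95% interval under all 7 alternatives run for it (40.7 to 57.3%), on both sides of an even split. That of embryo peaks did so under 6 of 7, and rose to 81.8% among the 5000 highest-scoring peaks of each list. The share over the genome at that setting was not computed, and high-ranking peaks were shared more often over the genome too. Against the full midline list, 3981 of 5021 embryo peaks at ranks up to 5000 were shared over the genome, and 21 of 23 in the cluster. The midline-only share of list-only peaks stayed above its reference in 9 of 10 alternatives, but kept its call in 2, with peaks assigned by overlap with the bounds and with at least 4 list-only peaks per window. Both of these left the counts and the reference of the cluster unchanged, so they could not challenge the call. The call was lost with reciprocal overlap of 50% (68.6%, exact binomial test, adjusted p = 0.168), midpoints within 250 bp (70.2%, 0.0695), widths of 500 bp (69.8%, 0.0735), the 5000 highest peaks (78.9%, 0.337), bounds 50 kb wider (66.7%, 0.0638) or 20 kb narrower (67.6%, 0.19), and the proportion of the arm (70.5%, 0.0937). Limited to peaks whose flanking peaks in the opposite list bear consecutive numbers, 1 of 4 was midline-only (25.0%, below the 37.0% of the genome), too few for a test. The cause of these changes was not tested. Among windows of 3R, 96.3% held fewer midline peaks and 89.9% fewer embryo peaks than the cluster, against 98.3 and 93.5% over the genome. No paired analysis was possible because replicates had been pooled when peaks were called, which also prevented leaving out a replicate. With unknown depth, absence from a list does not show closed chromatin.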
